A study of Homo sapiens and Mus musculus with 26 samples.

Results

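Input RNA is the cell's RNA taken without selecting what ribosomes carry. Here it is followed in MHCC97H, a human hepatocellular carcinoma cell line, after knockdown of METTL1. The members are the 6 libraries titled as MHCC97H input, 3 of control cells and 3 of knockdown cells. They are 6 of the 12 mRNA libraries of this line and 6 of the 26 samples of the series. Control cells are titled NC and tagged as wild type. Knockdown cells carry the short hairpin RNA named shMETTL1-2, the only hairpin among these libraries. Both were grown in DMEM. The sources used here do not say whether the knockdown cells were 1 clone or a mixed population. The titles number the libraries of each group as repeats 1 to 3 and do not tie a repeat to its own culture. A p-value therefore reflects only how these samples vary, and that variation may be technical.

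METTL1 is the catalytic subunit of a tRNA methyltransferase. With its partner WDR4 it places N7-methylguanosine in the variable loop of a subset of tRNAs, which stabilises them and helps the ribosome read their codons. The modified RNA is tRNA, so a measurement of input mRNA shows the transcripts present in the cells and not the methylation itself. High METTL1 expression has been described in liver tumors.

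Levels were deposited as FPKM, fragments per kilobase of transcript scaled to the mapped fragments of the library, a unit that corrects for transcript length and library size. The table lists 8074 genes, each at 1 FPKM or more in all 12 libraries, so a gene that dropped below that level anywhere is not seen. It gives no read depth, and no counting error can be attached to a value. Repeat 1 stood apart from the others in both groups. The log2 gap between control repeats 1 and 2 had an SD over genes of 1.20, against 0.126 between control repeats 2 and 3, and knockdown repeats gave 1.19 and 0.118. The gap of repeat 1 from the other repeats correlated at 0.942 over genes between control and knockdown cells, as a description of libraries and not a test. Each result is therefore given per repeat, as the knockdown library minus the control library with the same number on the log2(FPKM + 1) scale, which understates the differences of low genes. Of 14 hepatocyte markers, 4 were listed, APOH and AMBP among them. Listed too were 1 of 12 endothelial markers (EGFL7), 1 of 15 leukocyte markers (CD68), 4 of 12 markers of other epithelia (CDX2, VIL1, GATA3 and KRT20) and 0 of 12 fibroblast markers. In bulk RNA, fewer cells of one type and less RNA per cell cannot be told apart.

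METTL1 was at 47.9, 39.3 and 36.0 FPKM in control repeats 1, 2 and 3 and at 11.9, 18.3 and 15.3 FPKM in the knockdown repeats. Every knockdown library lay below every control library, and the knockdown level was 24.8%, 46.6% and 42.6% of the control level in the 3 repeats. Repeat 1 thus had both the highest control value and the lowest knockdown value. The log2 difference was -1.39 (SE 0.36), with a limma adjusted p of 1 over all genes and an exact two-sided permutation p of 0.10, the smallest that 3 against 3 libraries allow. Without repeat 1 in any group the METTL1 difference was -1.12 with a limma adjusted p of 4.16e-07. In that fit 4092 of 8074 genes (50.7%) passed. Its spread is only that between repeats 2 and 3, which were close to each other. WDR4 was at 15.6, 22.8 and 23.1 FPKM in control cells and 9.41, 23.3 and 20.2 FPKM in knockdown cells (exact two-sided permutation p 0.70). WDR4 was lower in knockdown repeat 1 and close to its control in repeat 2, and the groups overlapped. METTL1 lies on chromosome 12 from 57768471 to 57772105 of GRCh38.p14.

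**Figure D1:**
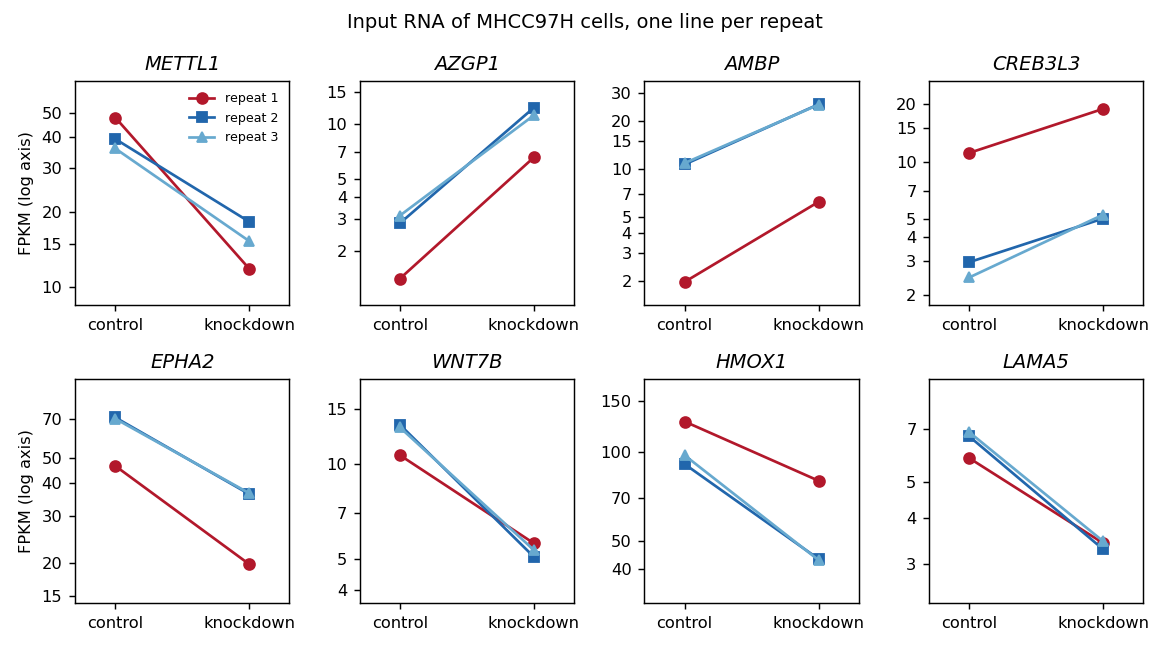
FPKM of 8 genes in the 6 input libraries on log axes that do not start at 0. Each line joins the control and the knockdown library of one repeat, with no error bar because each point is 1 library. All 3 lines slope down for METTL1, EPHA2, WNT7B, HMOX1 and LAMA5 and up for AZGP1, AMBP and CREB3L3, while repeat 1 starts at another level in several panels.

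Across the transcriptome, limma called 0 of 8074 genes (0%) at an adjusted p of 0.05, and 134 passed 0.05 without adjustment. A limma fit of the 6 input libraries alone gave counts of 0 and 44. Once the repeat number entered as a block, limma called 1 gene (0.0124%), AZGP1, with an adjusted p of 0.0248 over 12 libraries and 0.0499 over the 6 input libraries. Without adjustment, 330 genes passed 0.05 in limma with the block over 12 libraries and 1360 over the 6 input libraries. Without repeat 1 in any group, 4092 genes (50.7%) passed in limma, of which 1641 had higher and 2451 lower levels after knockdown. That count rests on repeats 2 and 3, which were close to each other in each group. With those repeats averaged as 1 library, limma called 0 genes, and 3 passed 0.05 without adjustment. None of the fits that called 0 genes had the block, so the gap of repeat 1 entered their SE. Their counts of 0 therefore do not show that levels were unchanged.

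The groups did not overlap in 349 genes (4.32%), with knockdown cells higher in 154 (1.91%) and lower in 195 (2.42%). The difference was above 0 in all 3 repeats for 1338 genes (16.6%) and below 0 in all 3 for 1782 (22.1%). Among these the share above 0 was 42.9%, and with libraries scaled to equal medians it was 53%, so a lean to lower values is not held across scalings. In 3662 genes (45.4%) repeat 1 had the opposite sign to both other repeats. A difference of at least 1 on the log2 scale in all 3 repeats was found for 3 genes higher (AZGP1, AMBP and VCAN) and 1 lower (METTL1). VCAN, a large matrix proteoglycan, had differences of 1.00, 1.31 and 1.22 and was picked out after its values were seen, since its mean level lay under the 5 FPKM asked of ranked genes. At 0.5 or more in all repeats there were 18 genes higher and 22 lower.

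**Figure D2:**
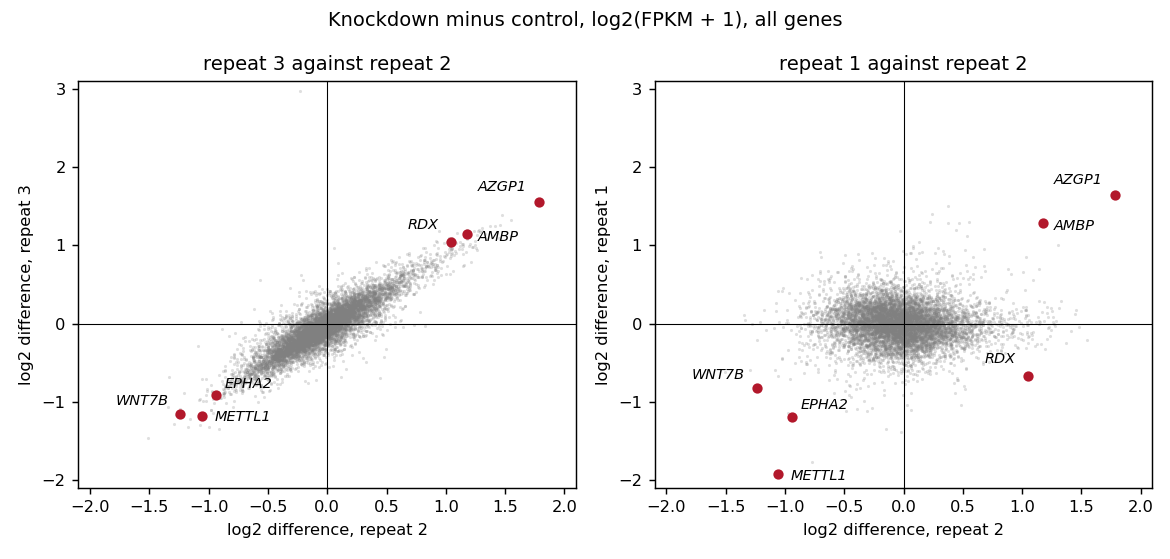
Log2 difference between knockdown and control input RNA in one repeat (vertical axis) against another (horizontal axis), 1 grey point per gene and 6 genes marked. Repeats 2 and 3 follow a diagonal (Pearson 0.879 over 8074 genes), whereas repeats 1 and 2 form a cloud without slope (-0.025), with AZGP1, AMBP, EPHA2, WNT7B and METTL1 on the same side of 0 in each and RDX on opposite sides.

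Differences in repeats 2 and 3 correlated over genes at a Pearson r of 0.879 (Spearman 0.855), and 84.2% of genes had the same sign in both. Repeat 1 did not share this pattern. Its differences correlated at -0.025 (Spearman -0.086) with repeat 2 and 0.023 (-0.040) with repeat 3, with equal signs in 45.9% and 46.9% of genes. These correlations are over genes of single library pairs and carry no p. Differences in repeat 1 were also narrower, with an SD of 0.246 against 0.341 and 0.326.

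The genes with the largest differences of one sign in every repeat were led by AZGP1 and AMBP on the higher side and, after METTL1, by EPHA2 on the lower side. The 250 bases before the RefSeq start of these 3 genes (GRCh38.p14) are shown because they are the proximal promoters of the leading genes. All 3 genes lie on the minus strand and each line reads 5′ to 3′ along the gene. Capitals mark the 2 motifs found in the EPHA2 window, GGAATG as bound by TEAD factors (here on the opposite strand) and TGACGTCA, the cyclic AMP response element.
AZGP1 chr7:99976032-99976281: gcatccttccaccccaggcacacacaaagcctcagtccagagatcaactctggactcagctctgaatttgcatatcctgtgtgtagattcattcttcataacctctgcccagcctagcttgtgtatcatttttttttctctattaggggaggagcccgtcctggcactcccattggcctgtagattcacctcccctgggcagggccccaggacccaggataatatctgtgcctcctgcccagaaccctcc
AMBP chr9:114078301-114078550: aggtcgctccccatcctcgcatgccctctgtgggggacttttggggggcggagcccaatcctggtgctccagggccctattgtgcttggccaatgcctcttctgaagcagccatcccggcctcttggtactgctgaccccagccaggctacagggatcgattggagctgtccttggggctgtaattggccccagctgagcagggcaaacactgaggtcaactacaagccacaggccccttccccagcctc
EPHA2 chr1:16156070-16156319: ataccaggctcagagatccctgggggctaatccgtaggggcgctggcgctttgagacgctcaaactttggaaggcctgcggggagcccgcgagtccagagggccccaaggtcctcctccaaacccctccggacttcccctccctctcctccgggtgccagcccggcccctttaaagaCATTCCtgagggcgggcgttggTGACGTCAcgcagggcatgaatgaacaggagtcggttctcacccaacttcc
Of the 24 ranked genes, 13 had a promoter entry. Each motif named here was searched on both strands of these windows. TGACGTCA was present in 1 of the 13 and in 1.65% of all 35116 promoters in the table, and GGAATG in 1 of 13 and 11.9%. The antioxidant response core TGACNNNGC was present in 2 of 13 (TCEAL9 and SAP30BP) and 10.9%. The HNF4 motif CAAAGTCCA (0.325% of promoters) and the AP-1 motif TGACTCA (4.2%) were in none of the 13. A match is only a description of these letters.

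AZGP1 encodes zinc-alpha-2-glycoprotein, a secreted lipid-mobilising protein made by liver and other epithelia. It was at 1.42, 2.86 and 3.15 FPKM in control repeats 1, 2 and 3 and 6.57, 12.3 and 11.2 FPKM in knockdown cells. Each knockdown library held 4.63, 4.3 and 3.55 times the level of its control, and the groups did not overlap. With the block AZGP1 rose, and without it the log2 difference of 1.66 (SE 0.29) had a limma adjusted p of 1. AMBP, the precursor of alpha-1-microglobulin and bikunin made by hepatocytes, was at 1.97, 10.8 and 10.96 FPKM in control and 6.26, 25.6 and 25.5 FPKM in knockdown cells. Its level was higher in every repeat, by 1.29, 1.18 and 1.15 on the log2 scale. Control repeat 1 lay so far below the others that knockdown repeat 1 was still under control repeats 2 and 3.

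The secreted liver proteins measured were 10 of 44 listed, and 0 were called. Over all genes 16.6% were above 0 in all repeats and 22.1% below, the shares to set beside each list. Of the 10, 5 were above 0 in all repeats and 1 below. Their median log2 difference in repeats 1, 2 and 3 was 0.19, 0.20 and 0.14, beside 0.00, -0.04 and -0.05 over all genes. Among members with a mean of at least 5 FPKM the median of the mean difference was -0.048, so the lean to higher values is not held in the more abundant members. HABP2, a plasma serine protease, was next after AMBP in this list, at 4.50, 1.4 and 1.15 FPKM in control and 12.5, 2.53 and 2.73 FPKM in knockdown cells. Its repeat 1 libraries were far above the others in both groups, and the control library of repeat 1 exceeded both other knockdown libraries.

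ADH1C, an alcohol dehydrogenase also higher in every repeat, was at 6.58, 2.61 and 2.55 FPKM in control and 11.3, 5.65 and 4.59 FPKM in knockdown cells. CREB3L3, a liver and intestine transcription factor held in the endoplasmic reticulum, was at 11.1, 2.96 and 2.46 FPKM in control and 18.9, 5.02 and 5.26 FPKM in knockdown libraries. In both genes the control value of repeat 1 exceeded the knockdown values of repeats 2 and 3. USH1C, a scaffold protein of microvilli, was at 8.19, 9 and 8.45 FPKM in control and 12.8, 13.8 and 12.7 FPKM in knockdown cells. Its repeats lay close together, the groups did not overlap, and the log2 difference of 0.56 (SE 0.18) varied least over repeats among the 12 ranked higher genes (0.59, 0.56 and 0.54).

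ACY3, an aminoacylase, was at 2.81, 3.59 and 3.46 FPKM in control and 6.35, 6.35 and 5.19 FPKM in knockdown cells. No knockdown library of ACY3 lay at or below a control library, and its unadjusted limma p of 0.00155 was among the 5 smallest. Of 19 genes of amino acid breakdown and the urea cycle, 3 were higher without overlap of the groups (ACY3, HPD and ALDH6A1). Another 2 were lower without overlap (HGD and GPT2), beside 1.91% higher and 2.42% lower over all genes. HPD and HGD, enzymes of tyrosine breakdown, differed by 0.40, 0.59 and 0.56 and by -0.29, -0.50 and -0.57, in opposite directions. The valine-degrading ALDH6A1 differed by 0.26, 0.72 and 0.68 and the alanine transaminase GPT2 by -0.12, -0.11 and -0.11, and HGD, ALDH6A1 and GPT2 were added after their values were seen. PRODH2, which acts on hydroxyproline, had differences of 0.50, 0.55 and 0.78 and overlapping groups. In this list 5 genes were above 0 in all repeats and 3 below, beside 16.6% and 22.1% of all genes. The per-repeat medians were 0.06, -0.04 and -0.04.

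Transcription factors of the liver did not move as one. Of 8 measured, 1 was above 0 in all repeats and 2 below, beside 16.6% and 22.1% of all genes. The list's medians per repeat were 0.18, -0.34 and -0.12. NR0B2, a nuclear receptor that represses bile acid synthesis genes, was at 1.04, 2.42 and 2.20 FPKM in control and 2.20, 3.76 and 4.34 FPKM in knockdown cells. CEBPA differed by -0.62, -0.41 and -0.23 and HNF4A by -0.13, -0.31 and -0.15, both lower in each repeat.

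The other genes ranked higher were of other kinds. TCEAL9, a small nuclear protein related to an elongation factor, was at 42.2, 22.96 and 23.8 FPKM in control and 67.6, 37.7 and 45.1 FPKM in knockdown cells. FBXL12, a substrate receptor of an SCF ubiquitin ligase, was at 23.3, 43.0 and 55.1 FPKM in control and 37.5, 87.6 and 92.3 FPKM in knockdown libraries. Each of these was higher within all 3 repeats, but knockdown libraries of one repeat overlapped control libraries of another. The humanin-like genes MTRNR2L6, MTRNR2L1, MTRNR2L8 and MTRNR2L10 ranked here, as did EIF5AL1. The MTRNR2L genes are nuclear copies of a stretch of mitochondrial ribosomal RNA and EIF5AL1 is a copy of EIF5A, so their reads can be split between copies and their values are uncertain. MTRNR2L1 had differences of 0.70, 1.15 and 1.02, with control repeat 1 at 196 FPKM and the other control repeats at 29.4 and 30.7 FPKM.

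On the lower side EPHA2 came next after METTL1. EPHA2, a receptor tyrosine kinase for ephrins, was at 46.5, 70.8 and 70.1 FPKM in control and 19.8, 36.4 and 36.7 FPKM in knockdown cells. All knockdown libraries lay below all control libraries, with a log2 difference of -1.02 (SE 0.31), a limma adjusted p of 1, and 0.0935 with the block. EPHA2 lies on chromosome 1 from 16124337 to 16156069. WNT7B, a secreted WNT ligand, was at 10.7, 13.4 and 13.1 FPKM in control and 5.62, 5.09 and 5.35 FPKM in knockdown cells. Here the repeats were close within each group, and the groups lay well apart. CSF1, the macrophage growth factor, was at 33.2, 9.41 and 9.41 FPKM in control and 19.9, 4.35 and 3.70 FPKM in knockdown libraries, and its groups overlapped, with both repeat 1 libraries high.

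LAMA5, a laminin chain of basement membranes, was at 5.82, 6.67 and 6.85 FPKM in control and 3.41, 3.28 and 3.45 FPKM in knockdown cells, with a log2 difference of -0.76 (SE 0.18) and an unadjusted limma p of 0.00144. AGRN, a basement membrane proteoglycan, was at 20.1, 25.6 and 25.7 FPKM in control and 14.2, 14.4 and 14.5 FPKM in knockdown libraries. LOXL2, an enzyme that cross-links collagen, was at 9, 7.69 and 7.65 FPKM in control and 5.64, 3.11 and 3.40 FPKM in knockdown libraries. In all 3 genes every knockdown library lay below every control library. ITGA3, an integrin subunit that binds laminins, differed by -0.47, -0.40 and -0.38, with overlapping groups. Of 26 laminins, collagens and integrins measured, 15 were below 0 in all repeats and 1 above, beside 22.1% and 16.6% of all genes. Of the 26, 0 were called. The list's medians in repeats 1, 2 and 3 were -0.18, -0.29 and -0.27, beside 0.00, -0.04 and -0.05 over all genes, and the counts were 14 below and 1 above with quantile normalization.

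Over all genes 22.1% were below 0 in all repeats and 16.6% above. In the WNT list, 7 of 17 genes were below 0 in all repeats and 1 above, with per-repeat medians of -0.06, -0.18 and -0.28. In the TGF-beta list, 8 of 18 were below and 3 above, with per-repeat medians of -0.09, -0.19 and -0.10. With quantile normalization 9 of the 18 were below and 6 above. The ligand TGFB1 was at 113, 268 and 255 FPKM in control and 90.9, 166 and 169 FPKM in knockdown cells. ID1, an inhibitor of helix-loop-helix factors, was at 666, 563 and 573 FPKM in control and 501, 321 and 336 FPKM in knockdown libraries. Groups did not overlap for ID1 but did for TGFB1, and both genes were lower within every repeat. TEAD2, the DNA-binding partner of YAP, was at 27.6, 47.0 and 47.7 FPKM in control and 17.1, 30.9 and 30.7 FPKM in knockdown cells, with repeat 1 low in both groups.

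The remaining genes ranked lower serve the nucleus, the Golgi, actin and translation. SAP30BP, a nuclear protein that acts in splicing and transcription, was at 32.2, 25.3 and 25.02 FPKM in control and 14.02, 12.4 and 13.2 FPKM in knockdown cells. B4GALT4, a galactosyltransferase of the Golgi, was at 16.6, 4.18 and 4.72 FPKM in control and 4.15, 2.03 and 2.51 FPKM in knockdown libraries. Neither gene overlapped between groups, although the highest knockdown value of B4GALT4, 4.15 FPKM, was just under its lowest control value, 4.18 FPKM. CAP1 and PFN2 both bind actin. CAP1 differed by -0.62, -1.51 and -1.46 and PFN2 by -0.62, -0.72 and -0.85, with repeat 1 levels far above the others (89.0 FPKM in control repeat 1 against 11.4 and 9.24 FPKM for CAP1). EEF1A2, an elongation factor normally found in muscle and neurons, was at 55.3, 225 and 224 FPKM in control and 36.1, 91.3 and 91.3 FPKM in knockdown cells. Its log2 differences of -0.60, -1.30 and -1.29 were thus smaller in size in repeat 1. ZFYVE28, an endosomal protein that acts on EGFR turnover, was at 2.64, 2.36 and 2.20 FPKM in control and 1.58, 1.46 and 1.35 FPKM in knockdown libraries, with no overlap and an unadjusted limma p of 0.00200.

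HMOX1, heme oxygenase and a target of the antioxidant factor NRF2, was at 128, 91.2 and 97.7 FPKM in control and 80.0, 43.3 and 42.9 FPKM in knockdown cells. Every knockdown library lay below every control library, with a log2 difference of -0.96 (SE 0.26) and a limma adjusted p of 1. Other NRF2 targets had smaller differences: the aldo-keto reductases AKR1C1 and AKR1B10 differed by -0.53, -0.63 and -0.63 and by -0.32, -0.40 and -0.47. AKR1C1 has near-identical copies, and its value is uncertain for that reason. Of 32 NRF2 targets, 15 were below 0 in all repeats and 2 above, beside 22.1% and 16.6% of all genes. Their medians per repeat were -0.13, -0.18 and -0.13. With quantile normalization 11 were below and 1 above, and 0 were called.

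Glycolytic enzymes and transporters were below 0 in all repeats for 12 of 20 measured genes and above in 0. Over all genes these shares were 22.1% and 16.6%, and 0 of the 20 were called. Their medians per repeat were -0.06, -0.35 and -0.34. With quantile normalization the medians were -0.20, -0.22 and -0.23, with 14 below in all repeats and 1 above. With equal medians they were -0.048, -0.321 and -0.295, with 10 below and 0 above. The smaller size in repeat 1 was thus kept with equal medians and not with quantile normalization. SLC16A3, the lactate exporter, was at 72.5, 290.2 and 303 FPKM in control and 59.3, 209 and 224 FPKM in knockdown cells. LDHA, which makes lactate, differed by -0.21, -0.42 and -0.36, and the hexokinase HK1 by -0.18, -0.18 and -0.25. Fatty acid and triglyceride synthesis genes had per-repeat medians of -0.15, -0.08 and 0.06. Of 18 such genes, 5 were below in all repeats and 3 above, beside 22.1% and 16.6% of all genes. Of these, fatty acid synthase, FASN, was at 106, 152 and 147 FPKM in control and 78.7, 96.4 and 101 FPKM in knockdown cells without overlap, and the desaturases SCD and FADS2 differed by -0.78, -0.39 and -0.45 and by -0.43, -0.43 and -0.29.

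**Figure D3:**
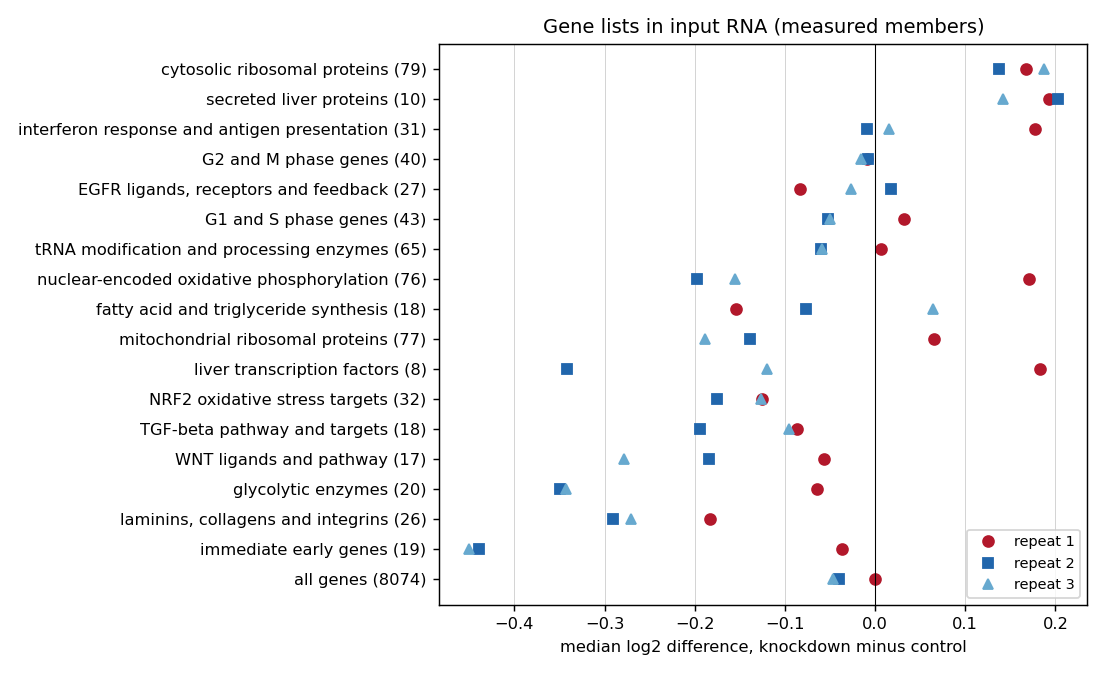
Median log2 difference between knockdown and control input RNA (horizontal axis) for 17 gene lists and all genes, with the number of measured members in brackets and 1 symbol per repeat. Cytosolic ribosomal proteins and secreted liver proteins lie to the right of 0 in every repeat, laminins, glycolytic enzymes and NRF2 targets to the left, and oxidative phosphorylation lies on opposite sides in repeat 1 and in repeats 2 and 3.

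Some genes of growth control were followed whatever their rank. The growth factor receptor EGFR was at 7.72, 1.95 and 2.31 FPKM in control input RNA and 5.70, 1.59 and 1.72 FPKM after knockdown. The secreted vessel growth factor VEGFA differed by -0.01, -0.29 and -0.20, and the cell cycle gene CCNA2, cyclin A, by -0.05, 0.54 and 0.39. EGFR was lower within each repeat by less than its gap between repeat 1 and the other repeats. CCNA2 was higher only in repeats 2 and 3. Of 27 EGFR ligands, receptors and feedback genes, 5 were above 0 in all repeats and 6 below, beside 16.6% and 22.1% of all genes. With equal medians 6 of the 27 were above and 5 below. ERBB3, a partner receptor of EGFR, differed by 0.30, 0.65 and 0.58. The feedback inhibitor ERRFI1 differed by -0.65, -0.28 and -0.42 and the sheddase ADAM9 by -0.32, -0.30 and -0.27.

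Immediate early genes respond within minutes to growth signals and stress. Of 19 measured, 5 were below 0 in all repeats (26.3%) and 0 above, beside 22.1% and 16.6% of all genes. Their medians per repeat were -0.04, -0.44 and -0.45, close to all genes in repeat 1 and the lowest of the lists shown in repeats 2 and 3. JUN, a subunit of AP-1, was at 114, 23.3 and 26.0 FPKM in control and 101, 12.3 and 13.6 FPKM in knockdown cells. FOSL2, another AP-1 subunit, differed by -0.67, -0.45 and -0.41, and ZFP36, which destabilises mRNA, by -0.30, -0.44 and -0.56. Both repeat 1 libraries of JUN and ZFP36 lay far above the other libraries.

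Cell cycle genes had no common direction. Of 43 genes of G1 and S phase, 8 were above 0 in all repeats and 9 below, beside 16.6% and 22.1% of all genes. Of 40 genes of G2 and mitosis, 4 were above and 7 below. Medians per repeat were 0.03, -0.05 and -0.05 for G1 and S phase and -0.01, -0.01 and -0.02 for G2 and mitosis. MCM3, a subunit of the replicative helicase, was at 42.0, 39.7 and 38.1 FPKM in control and 47.4, 47.0 and 44.3 FPKM in knockdown cells without overlap. The phosphatase CDC25A, which drives entry into S phase, was at 15.6, 5.70 and 5.85 FPKM in control and 9, 3.78 and 3.75 FPKM in knockdown libraries, lower within each repeat.

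Cytosolic ribosomal proteins, the protein part of the ribosome, were mostly higher in knockdown cells. Of 79 measured, 55 were above 0 in all repeats and 1 below, beside 16.6% and 22.1% of all genes. The list's medians per repeat were 0.17, 0.14 and 0.19, and 0 were called. With equal medians the counts were 62 and 1, and with quantile normalization 26 and 6. The size of this shift thus depends on the scaling, and many of these genes have near-identical copies elsewhere in the genome, which makes single values uncertain. RPS25 was at 933, 3837 and 3641 FPKM in control and 1188, 5095 and 4868 FPKM in knockdown cells, and RPS19 differed by 0.36, 0.32 and 0.39. Only for RPL37 among the 79 did the groups not overlap, beside 1.91% of all genes higher without overlap. RPL37 was at 264, 223 and 217 FPKM in control and 321, 291 and 287 FPKM in knockdown cells. In control cells these genes had a median log2 level 1.93 lower in repeat 1 than in repeats 2 and 3, a gap larger than any knockdown difference in the list.

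Mitochondrial genes parted between the repeats, and repeat 1 had the opposite sign to both others in 45.4% of all genes. Of 76 nuclear-encoded genes of oxidative phosphorylation, 62 were above 0 in repeat 1, while 55 were below 0 in both repeats 2 and 3. Of all 8074 genes, 4024 were above 0 in repeat 1 and 3888 below 0 in both repeats 2 and 3. Shares of all genes above and below 0 in all repeats were 16.6% and 22.1%. The list's medians in repeats 1, 2 and 3 were 0.17, -0.20 and -0.16. NDUFB1 of complex I was among the 15 genes above 0 in all repeats (0.37, 0.40 and 0.49), and ATP5MC1 of ATP synthase among the 11 below (-0.26, -0.46 and -0.35). Of 77 mitochondrial ribosomal proteins, 11 were above and 14 below in all repeats, with per-repeat medians of 0.07, -0.14 and -0.19. With quantile normalization these were 16 and 19. MRPL21 was at 90.4, 125 and 122 FPKM in control and 65.7, 85.9 and 80.8 FPKM in knockdown cells, and MRPL35 differed by -0.42, -0.73 and -0.54. Neither overlapped between groups.

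Enzymes that modify or process tRNA, the class to which METTL1 belongs, were measured for 65 genes. Of these, 12 were above 0 in all repeats and 20 below, beside 16.6% and 22.1% of all genes. The list's medians per repeat were 0.01, -0.06 and -0.06, near those of all genes. With equal medians the counts were 15 and 15, and with quantile normalization 13 and 17. CDK5RAP1, which modifies mitochondrial tRNAs, differed by 0.24, 0.44 and 0.21. TRMU, a thiouridylase of mitochondrial tRNA, differed by -0.21, -0.17 and -0.20, and TP53RK, a subunit of the KEOPS complex, by -0.23, -0.23 and -0.33. Aminoacyl-tRNA synthetases were below 0 in all repeats for 6 of 18 and above in 0, beside 22.1% and 16.6% of all genes. Their medians per repeat were -0.09, -0.12 and -0.14, and other scalings are not given for this list.

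Of 31 genes of the interferon response and antigen presentation, 8 were above 0 in all repeats and 2 below. Over all genes these shares were 16.6% and 22.1%. The list's medians per repeat were 0.18, -0.01 and 0.02. PSMB9, a subunit of the immunoproteasome, was at 3.00, 14.9 and 12.1 FPKM in control and 7.72, 22.01 and 21.9 FPKM in knockdown cells. IFIT3, an interferon-induced protein, was at 1.85, 2.21 and 2.30 FPKM in control and 3.03, 3.46 and 3.78 FPKM in knockdown libraries. IFIT3 did not overlap between groups, whereas knockdown repeat 1 of PSMB9 lay below control repeats 2 and 3. PSME2, a proteasome activator subunit, differed by 0.30, 0.40 and 0.39.

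Several genes of substantial level had opposite differences in repeat 1 and in the other repeats. LCN2, a secreted iron-scavenging lipocalin, went from 32.9 to 59.9 FPKM in repeat 1 but from 23.5 to 14.1 and from 23.1 to 13.3 FPKM in repeats 2 and 3. The metallothionein MT2A differed by 0.91, -0.70 and -0.73, LARP6, which binds collagen mRNAs, by 0.61, -0.77 and -0.68, and C9orf16 by 0.67, -0.71 and -0.61. In the other direction, RDX, which links actin to the plasma membrane, went from 12.4 to 7.43 FPKM in repeat 1 but from 20.8 to 43.9 and from 22.2 to 46.7 FPKM in repeats 2 and 3. The membrane transporter FLVCR1 differed by -0.52, 0.67 and 0.51, BRI3BP by -0.50, 0.67 and 0.58 and the kinesin-binding KTN1 by -0.49, 0.72 and 0.62. These 8 genes were ranked for being opposed, so their signs are a description.

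The genomic span of a gene, from first to last base in RefSeq, moved with the difference in opposite ways in the repeats. Over 8066 genes with a span, Spearman's rho between span and difference was -0.308 in repeat 1, 0.231 in repeat 2 and 0.210 in repeat 3. The fifth of genes with the shortest span had a median difference of 0.10 in repeat 1 and -0.13 and -0.14 in repeats 2 and 3. The gap between control repeat 1 and the other control repeats also moved with span (rho 0.286), and the part of span in the differences was not tested.

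Polysome RNA of the same cells was sequenced beside the input, 3 libraries per group. Same-numbered libraries of both kinds deviated together, so polysome RNA is no independent check of the input-ranked genes. AZGP1 differed there by 1.64, 2.02 and 1.99, AMBP by 1.06, 1.59 and 1.5, EPHA2 by -0.82, -0.86 and -0.73 and WNT7B by -0.69, -0.84 and -0.87, each with the sign it had in input RNA in all repeats. TCEAL9 did not: it was higher in every input repeat and lower in polysome RNA, with differences of -0.60, -0.64 and -0.84. The limma interaction of knockdown and library kind was -1.44 (SE 0.42) for TCEAL9, with an adjusted p of 0.977. EEF1A2 and HMOX1 were lower in polysome RNA too, with differences of -0.34, -0.42 and -0.40 and of -0.34, -0.22 and -0.21, nearer to 0 than in input RNA in each repeat. ZFYVE28 was near 0 there (-0.02, 0.07 and -0.05). EGFR and CCNA2, in contrast, were lower in polysome RNA, with differences of -1.10, -1.10 and -1.12 and of -0.78, -0.68 and -0.65. Limma called 0 of 8074 genes (0%) for this interaction, and 336 had an unadjusted p below 0.05. None of these differences between input and polysome RNA passed in this fit. It had no replicate block, so the gap of repeat 1 entered the SE. Interactions with the block are not given here, so these p-values do not show that input and polysome differences are alike.

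**Figure D4:**
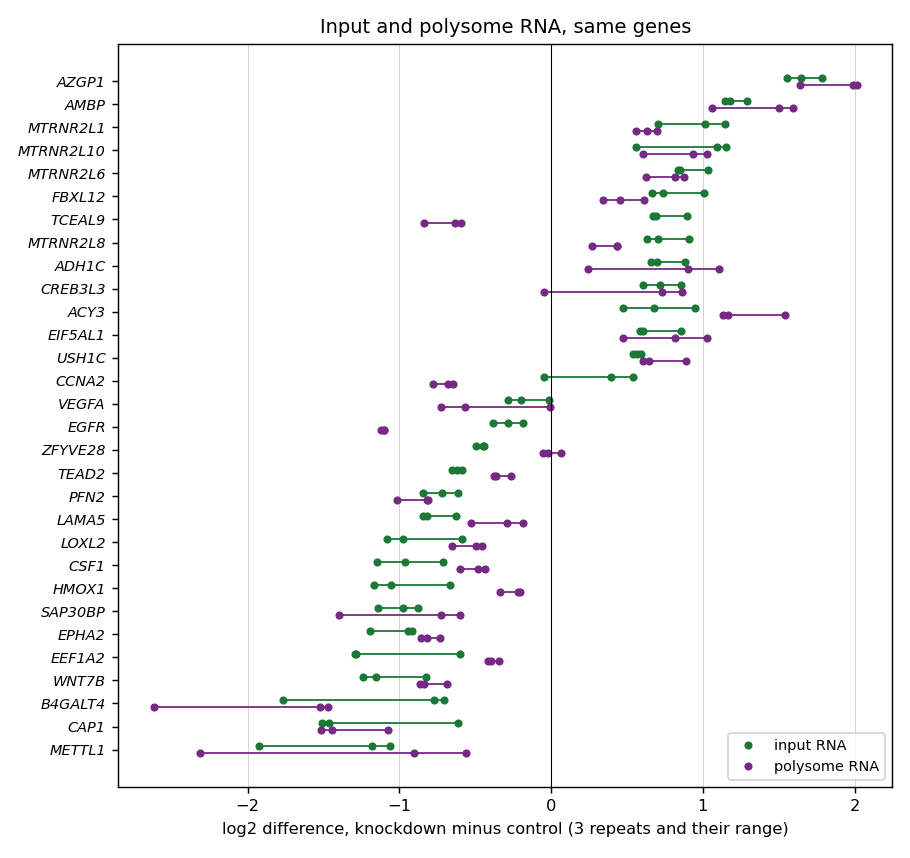
Log2 difference between knockdown and control in input RNA and in polysome RNA (horizontal axis) for genes ranked or followed in input RNA. Points are the 3 repeats and lines their range. AZGP1, AMBP, EPHA2 and WNT7B lie on one side of 0 in both kinds of library, whereas TCEAL9 lies to the right in input RNA and to the left in polysome RNA.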

How the data were processed

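Control and METTL1 knockdown MHCC97H cells were profiled with a stranded mRNA library kit, per the labels' protocols. For each of 12 libraries the authors deposited gene-level FPKM values. The submitters' processing notes name Bowtie2 and HTSeq as tools and GRCh38 as build. The sources used here do not state versions, annotation, strand setting or filters. Log2(FPKM + 1) was fitted with limma 3.58.1 in R 4.3.3 as 4 group means over 12 libraries, with an intensity trend, two-sided, Benjamini-Hochberg adjusted over 8074 genes and called at 0.05. The code was tested on simulated data.

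Members, lists and tests were chosen with earlier results of these data known. Named genes were METTL1, WDR4, EGFR, VEGFA and CCNA2, the 5 smallest p, the 12 highest and 12 lowest by their smallest per-repeat difference (one sign, mean of at least 5 FPKM), the 4 most opposed per direction, and up to 3 members per list. Same-numbered input libraries deviated together (correlation over genes 0.913 to 0.942, lowest over all group pairs 0.319), which is the basis for the block. Control repeat 2 with knockdown repeat 3 gave 0.910 and control repeat 3 with knockdown repeat 2 gave 0.928, so the numbers do not separate repeats 2 and 3. Alternatives were other pseudocounts, filters, scalings, blocks and left-out libraries. TRAC-Seq tables were not used here. Results of some genes are left out.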

Additional observations from a re-analysis of the deposited data

Results flagged for a closer look

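TCEAL9 was higher in knockdown cells in all 3 input repeats and lower in all 3 polysome repeats. Taking the input difference from that in polysome RNA gave -1.44 on the log2 scale, with a limma interaction adjusted p of 0.977, which does not pass. The interactions in this section come from the fit without the replicate block, so the gap of repeat 1 entered their SE.

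IFIT3 showed the same opposition, with a polysome difference minus input difference of -0.92 and a limma interaction adjusted p of 0.977. Its levels, 1.85 to 3.78 FPKM in input RNA, are low.

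ALDH6A1 was likewise higher in all 3 input repeats and lower in all 3 polysome repeats, by -0.69 in polysome relative to input RNA (limma interaction adjusted p 0.977). GPT2 was lower in all 3 input repeats and higher in all 3 polysome repeats, by 0.28 (adjusted p 0.977). Neither passes, and both genes were added after their values were seen.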

How the results depend on the processing

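Limma called 0 genes in every fit except those with the replicate block, which called 1 over 12 libraries and 1 over 6, and the fit without repeat 1 in any group, which called 4092. The fits that called 0 had no block, so the gap of repeat 1 entered their SE. The block changed no other call in the text. Without repeat 1 in any group the groups did not overlap in 2623 genes higher and 3574 lower. In that fit METTL1 differed by -1.12 with a limma adjusted p of 4.16e-07. Of the 82 genes given with values 79 passed, beside 50.7% of all genes. Most of the 82 were picked by their differences in these same libraries, so their passing is no support for them. The spread in that fit is only that between repeats 2 and 3, which were close to each other. With repeats 2 and 3 averaged, MT2A (0.096), LCN2 (0.060) and C9orf16 (0.0068) changed sign, and the other 79 kept theirs outside the fits that leave out 1 library.

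List medians that moved by more than their spread between repeats were, with a mean of at least 5 FPKM, secreted liver proteins (-0.048). With quantile normalization they were NRF2 targets (-0.066), cytosolic ribosomal proteins (0.047), tRNA enzymes (0.0010) and G2 and M phase genes (0.032), and with equal medians the same lists without tRNA enzymes (-0.10, 0.20 and 0.035). With repeats 2 and 3 averaged they were laminins (-0.17) and tRNA enzymes (-0.010), and without repeat 1 G2 and M phase genes (-0.018). The causes were not tested.

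Leaving out 1 library unbalances the repeats, so the gap of repeat 1 enters the difference: the median of all genes then ran from -0.27 to 0.19. The sign changed in at least 1 such fit for 28 of 82 genes, whose lowest and highest differences were WDR4 -0.51 to 0.10, EGFR -0.73 to 0.21, VEGFA -0.98 to 0.57, CCNA2 -0.18 to 0.94, MTRNR2L8 -0.38 to 1.93, PFN2 -1.82 to 0.31, MT2A -0.89 to 0.32, LCN2 -0.89 to 0.16, LARP6 -1.02 to 0.11, FLVCR1 -0.0004 to 0.63, KTN1 -0.045 to 0.89, CEBPA -0.78 to 0.044, HNF4A -0.64 to 0.21, SLC16A3 -1.07 to 0.22, LDHA -0.86 to 0.13, HK1 -0.42 to 0.0003, AKR1C1 -1.47 to 0.24, AKR1B10 -0.99 to 0.15, ERRFI1 -1.28 to 0.48, ADAM9 -1.66 to 1.08, RPS25 -0.27 to 1.08, RPS19 -0.16 to 0.87, NDUFB1 -0.84 to 1.70, ATP5MC1 -0.95 to 0.19, PSME2 -0.45 to 1.21, TP53RK -0.58 to 0.045, ZFP36 -1.57 to 0.64 and JUN -1.60 to 0.078. The medians of all 17 lists shown ran, for secreted liver proteins 0.019 to 0.47, laminins, collagens and integrins -0.40 to -0.16, WNT ligands and pathway -0.53 to 0.29, EGFR ligands, receptors and feedback -0.52 to 0.27, TGF-beta pathway and targets -0.53 to 0.41, immediate early genes -0.72 to 0.16, NRF2 oxidative stress targets -0.48 to 0.14, glycolytic enzymes -0.34 to -0.19, fatty acid and triglyceride synthesis -0.37 to 0.24, cytosolic ribosomal proteins -0.45 to 0.78, mitochondrial ribosomal proteins -0.29 to -0.058, nuclear-encoded oxidative phosphorylation -0.39 to 0.11, tRNA modification and processing enzymes -0.25 to 0.19, interferon response and antigen presentation -0.035 to 0.12, G1 and S phase genes -0.20 to 0.28, G2 and M phase genes -0.28 to 0.45 and liver transcription factors -0.40 to 0.059. Genes without overlap ran from 177 to 1900 higher and 216 to 2608 lower. Limma called 0 genes in each of these fits, with 55 to 895 at an unadjusted p below 0.05. The table gives no depth, so counting error could not be weighed.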
